A study of Mus musculus with 15 samples.

Results

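STAG1 was depleted by siRNA for 48 h in mouse embryonic stem cells (mESCs) that already lacked STAG2, and polyadenylated RNA was sequenced. The comparison takes the 3 libraries labelled Stag2-KO siStag1 and the 3 labelled Stag2-KO siGLO, chosen by these labels, so 6 of the 15 libraries of the series. All 6 came from the male line v6.5 grown on gelatin and from 1 CRISPR clone in which a deletion removes part of *Stag2* (written *Stag2*-/-). Each well received 50 nM of siStag1, a pool of siRNAs against *Stag1*, or of siGLO, the non-targeting control, so both groups carry the *Stag2* deletion and a transfection. Wild-type v6.5 cells given siGLO or siStag1 in the same way (3 libraries each) show what the same siRNA did when STAG2 was present. A *Stag1* knockout clone given siGLO (3 libraries) also entered the main fit, in its gene filter, scaling and shared estimate of the spread. The replicates of each knockout are repeats of a single clone, so p-values measure the spread between wells and not between clones.

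Cohesin is a ring of SMC1A, SMC3 and RAD21 that holds sister chromatids together and, with CTCF, folds chromosomes into loops. In somatic cells each ring carries either STAG1 or STAG2, 2 related subunits that help keep it on chromatin. Mouse ES cells are known for a network of transcription factors that holds them in the naive state: *Pou5f1*, *Sox2* and *Nanog* are the general factors, while *Tfcp2l1*, *Esrrb*, *Klf4*, *Tbx3*, *Nr5a2* and *Prdm14* mark the naive state and go down as cells move towards the formative and primed epiblast.

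The 6 libraries held between 16030901 and 18077378 counts on genes, and 14508 genes were tested. Values below are normalized counts, which are counts scaled by edgeR's TMM factors to a common depth, and log2 fold changes are siStag1 over siGLO. A gene was called at a Benjamini-Hochberg adjusted p under 0.1 in edgeR's two-sided quasi-likelihood test. At this depth 3 counts, the smallest level taken as seen, are 0.166 to 0.187 CPM, which covers counting error only. Libraries numbered 1 stood apart from numbers 2 and 3 in both groups, and same-numbered libraries deviated together, so the count with the replicate number as a block is given beside the main one where it moves a list's count of calls. The stem cell label was checked on *Pou5f1*, *Sox2* and *Nanog*, which were all expressed in the 6 libraries, as given below.

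*Stag1* (chr9:100597798-100959375, mm10, plus strand) fell in the treated cells. The siGLO libraries held 1875, 2204 and 1936 normalized counts and the siStag1 libraries 667, 781 and 629, with no overlap. The mean level was 34.5% of the control, and the 3 same-numbered pairs gave 35.6%, 35.4% and 32.5%. In edgeR the log2 fold change was −1.53 ± 0.14 (SE, n = 3 per group, adjusted p = 6.67e-06). An exact two-sided permutation test gave p = 0.1, which is the smallest p that 3 against 3 allows. In wild-type cells siStag1 left 20.6% of the *Stag1* level (log2 fold change −2.28 ± 0.14), and the difference between the genotypes, 0.75 ± 0.19 on the log2 scale, did not pass the test (adjusted p = 0.254) but did with the replicate block (adjusted p = 0.0253).

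*Stag2* RNA (chrX:42149317-42277185, plus strand) was still counted in the knockout cells, at 663, 739 and 675 with siGLO, or 29.7% of the wild-type siGLO level. It rose with siStag1 to 851, 931 and 940 (log2 fold change 0.39 ± 0.12, adjusted p = 0.0808), but the call held in only 1 of the 6 fits that leave out 1 of these libraries. These counts cover the whole gene, so they do not tell RNA of the deleted allele from intact RNA. *Stag3*, the meiotic STAG, was at 726, 450 and 652 with siGLO and 702, 699 and 764 with siStag1, with overlap. None of the 13 other cohesin genes tested (ring subunits, loaders, release factors, acetyltransferases, *Hdac8* and *Ctcf*) was called in edgeR (3 had an unadjusted p under 0.05, and DESeq2 called 1), and the list of 16 had a median log2 fold change of 0.06 against 0.01 over all genes tested. Among them the loader genes *Nipbl* (log2 fold change 0.25 ± 0.09, adjusted p = 0.122) and *Mau2* (0.23 ± 0.08, adjusted p = 0.161) were called with the replicate block (adjusted p = 0.026 and 0.0666), and *Nipbl* also with DESeq2 (adjusted p = 0.0768) and with library size alone in edgeR (adjusted p = 0.0748). *Smc1a*, *Smc3*, *Rad21*, *Wapal*, *Pds5a*, *Pds5b*, *Cdca5*, *Esco1*, *Esco2*, *Hdac8* and *Ctcf* had log2 fold changes from −0.22 (*Esco2*) to 0.24 (*Pds5b*).

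Of the 14508 genes, 432 rose (2.98%) and 492 fell (3.39%), 924 in all (6.37%). Among called genes the median log2 fold change was 0.66 for those that rose and −0.71 for those that fell, and 119 rose and 165 fell by more than 1. The 3 values of each group did not overlap for 2803 genes (19.3%) of all tested and for 866 of the 924. With the replicate block 2049 genes were called (14.1%), 1047 higher and 1002 lower, and these held all 924. The count was 904 without the libraries numbered 1, 1484 without siStag1 replicate 1, 535 without siStag1 replicate 2 and 416 without siStag1 replicate 3. It was 224 of 13916 genes tested when the spread was estimated from the 6 libraries alone. Counts of list members given below for the replicate block or for only the 6 libraries stand against these totals.

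**Figure D1:**
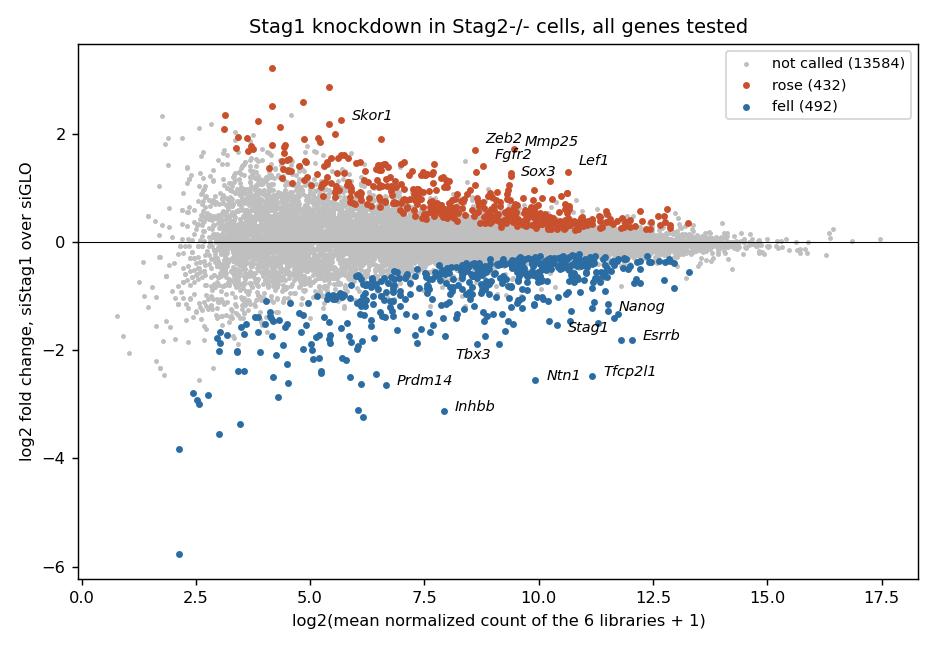
Each point is 1 of the 14508 genes tested; the x axis is log2 of the mean normalized count of the 6 *Stag2*-/- libraries plus 1, and the y axis is the log2 fold change of siStag1 over siGLO. The 432 genes that rose (red) and the 492 that fell (blue) spread over the whole range of levels, and *Tfcp2l1*, *Esrrb* and *Ntn1* stand out as highly expressed genes with large falls.

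The naive pluripotency genes fell together. The list was chosen with earlier results of these data known and holds *Jam2*, which the study plotted in these samples. Its direction is therefore not independent evidence. Of 20 tested, 16 fell and none rose, with a median log2 fold change of −1.25 against 0.01 over all genes, where 3.39% fell. The 3 same-numbered pairs gave medians of −1.25, −1.22 and −1.26. The summed level of the 20 genes was 39120 to 43280 in the siGLO libraries and 18900 to 19250 in the siStag1 libraries, and the groups did not overlap for 16 of the 20 (19.3% of all genes did not overlap). The count stayed at 15 in each of the 6 fits that leave out 1 library and was 15 without the libraries numbered 1. In bulk RNA, fewer cells in the naive state and less RNA per cell cannot be told apart.

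*Tfcp2l1* (chr1:118627945-118685168, plus strand), a transcription factor of the naive network, showed the smallest adjusted p of the list. Its levels were 2806, 4697 and 4228 with siGLO and 677, 733 and 704 with siStag1. All treated libraries were far below the controls, and the log2 fold change was −2.47 ± 0.14 (5.55-fold lower, adjusted p = 1.3e-07). *Tbx3* (chr5:119670669-119684724, plus strand), a T-box factor, went from 824, 870 and 956 to 188, 283 and 244 (log2 fold change −1.89 ± 0.14, adjusted p = 7.93e-07). *Esrrb* (chr12:86361117-86521628, plus strand), an orphan nuclear receptor and one of the most abundant naive factors, went from 6271, 6042 and 7325 to 1331, 2144 and 2112 (−1.81 ± 0.14, adjusted p = 1.84e-06). *Nr5a2* (chr1:136842571-136960448, minus strand), another nuclear receptor, went from 842, 900 and 757 to 386, 280 and 335 (−1.32 ± 0.12, adjusted p = 7.54e-06). In each of these 4 genes the highest treated library was below the lowest control, and the call held in all 6 fits that leave out 1 library.

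*Prdm14* (chr1:13113457-13127163, minus strand), which represses primed genes and DNA methylation, had the largest fall of the list. It was at 142, 163 and 212 with siGLO and at 10, 38 and 34 with siStag1, of which replicate 1 was lowest (log2 fold change −2.65 ± 0.28, adjusted p = 4.61e-05). The other members that fell were chosen for naming after their values were seen. They were the Krüppel-like factors *Klf4* (−1.46), *Klf2* (−1.28) and *Klf5* (−1.17), the nuclear receptor *Nr0b1* (−1.52), *Zfp42*, the gene of the ES cell marker REX1 (−1.33), *Tcl1* (−1.41), *Jam2* (−1.22), the growth factor *Fgf4* (−1.10), the DNA demethylase *Tet2* (−0.93), *Spp1* (−0.91) and *Dppa3* (−0.55, adjusted p = 0.0997), all as log2 fold changes. The call for *Dppa3* was lost in all 6 fits that leave out 1 library. The 4 that did not pass were *Pecam1* (−0.20), *Gbx2* (−0.03), *Stat3* (0.06) and *Nodal* (0.09).

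**Figure D2:**
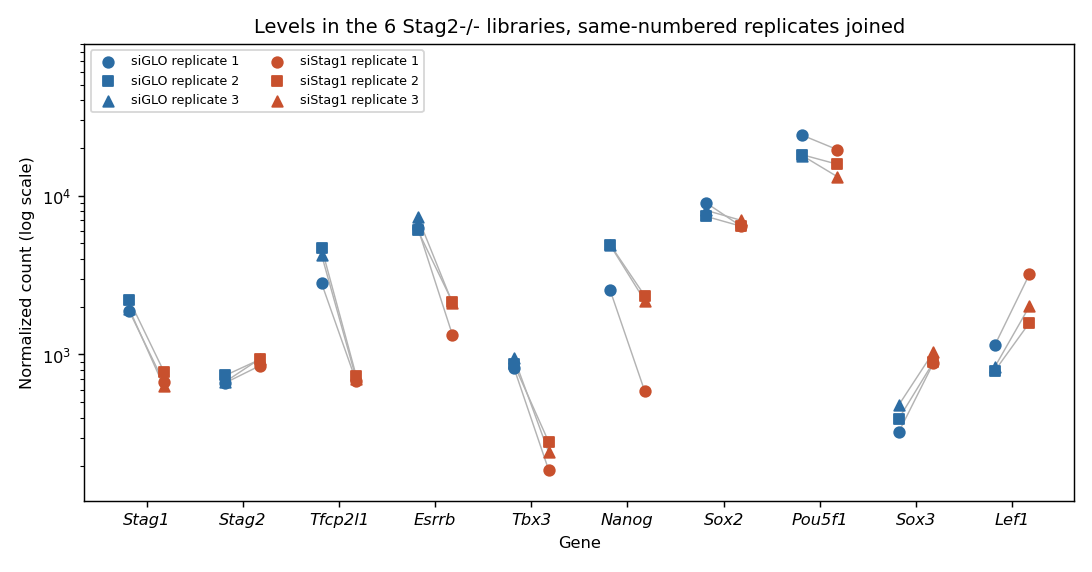
Normalized counts (log scale) of 10 genes in the 3 siGLO (blue) and 3 siStag1 (red) libraries of *Stag2*-/- cells, with lines joining libraries of the same replicate number. *Tfcp2l1*, *Esrrb* and *Tbx3* fell in all 3 pairs, *Pou5f1* and *Sox2* moved little, and *Nanog* was lowest in replicate 1 of both groups.

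Of the general pluripotency factors 2 of 14 fell (3.39% of all genes did) and none rose in edgeR, in DESeq2 or at an unadjusted p under 0.05, with a median log2 fold change of −0.13, while 4 fell with the replicate block and 0 to 3 with 1 library left out. *Nanog* was at 2540, 4913 and 4885 with siGLO and 587, 2342 and 2181 with siStag1. Replicate 1 was the lowest in both groups, and the highest treated value was close to the lowest control (log2 fold change −1.27 ± 0.34, adjusted p = 0.05, and 0.00788 with the replicate block), and its call was lost without siGLO replicate 2 (adjusted p = 0.144), without siGLO replicate 3 (0.13) and with only the 6 libraries (0.31). *Sox2* went from 8985, 7392 and 8070 to 6424, 6420 and 6992, a small fall without overlap (−0.30 ± 0.08, adjusted p = 0.0603), and its call was lost without siGLO replicate 1 (adjusted p = 0.228), siGLO replicate 3 (0.115) or siStag1 replicate 2 (0.193). *Pou5f1*, the gene of OCT4, was at 23960, 18057 and 17830 with siGLO and at 19491, 15770 and 13177 with siStag1, and these ranges overlapped (−0.31 ± 0.13, adjusted p = 0.234, and 0.0441 with the replicate block). *Dppa5a* was at 19432, 11486 and 12261 and then at 14469, 11363 and 8666, also with overlap.

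Among formative and primed epiblast genes 3 of 17 rose (2.98% of all genes did) and none fell in edgeR, in DESeq2 or at an unadjusted p under 0.05, with a median log2 fold change of 0.27. With the replicate block, which called 1047 rises among all 14508 genes, 7 rose and 1 fell, and 2 to 5 rose with 1 library left out. *Sox3*, a SOXB1 factor of the epiblast and neural plate, rose from 324, 393 and 479 to 879, 892 and 1032 (log2 fold change 1.23 ± 0.19, adjusted p = 0.00115). *Lef1*, a nuclear partner of beta-catenin, rose from 1144, 790 and 835 to 3200, 1584 and 2010, with replicate 1 highest in both groups (1.30 ± 0.25, adjusted p = 0.00722). *Sall2*, a zinc finger factor, rose from 660, 1139 and 1234 to 1473, 1986 and 2055 (0.86 ± 0.21, adjusted p = 0.0338), and its call was lost without siStag1 replicate 2 (adjusted p = 0.116) or 3 (0.141). *Sox11* was at 2018, 2459 and 2609 and then at 2549, 2746 and 3240 (adjusted p = 0.169, and 0.063 with the replicate block). Against wild-type siGLO cells the *Stag2*-/- siGLO cells had 4110 genes called (28.3%), and in that comparison 14 of the 17 epiblast genes were higher and 13 of the 20 naive genes were lower. This comparison shares the *Stag2*-/- siGLO libraries with the siStag1 comparison.

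In edgeR none of 18 tested primitive endoderm genes rose (2.98% of all genes did), while 1 did at an unadjusted p under 0.05 and 1 in DESeq2, and the median log2 fold change was 0.11. Of the 18, 1 rose with the replicate block, without the libraries numbered 1 there were 2 (median 0.33), and without siGLO replicate 1 there were 3 (median 0.40). In this list 1 gene fell: *Fst*, the gene of the activin-binding protein follistatin, from 65, 125 and 118 to 33, 21 and 27 (log2 fold change −1.93 ± 0.32, adjusted p = 0.00233). *Gata6* was at 174, 62 and 61 and then 121, 50 and 74, and *Sox17* at 68, 26 and 25 and then 51, 19 and 31, so both were highest in replicate 1 of each group and overlapped. Among neural genes 2 of 17 fell in edgeR and none rose, where 3.39% of all genes fell, while 4 rose at an unadjusted p under 0.05 and 1 in DESeq2 (*Nes*, adjusted p = 0.0634). In other fits 4 rose and 3 fell with the replicate block, 4 rose and 4 fell without the libraries numbered 1, and 4 rose and 2 fell without siStag1 replicate 1. *Stmn2*, a neuronal microtubule regulator, went from 3740, 3907 and 4339 to 1707, 1793 and 1951 (−1.14 ± 0.09, adjusted p = 1.38e-06), and *Olig2*, an oligodendrocyte and motor neuron factor, went from 320, 347 and 400 to 170, 235 and 165 (−0.91 ± 0.15, adjusted p = 0.00215). *Nes* (0.58 ± 0.20, adjusted p = 0.12) and *Pax6* (0.77 ± 0.28, adjusted p = 0.161) did not pass, although both were called with the block (adjusted p = 0.0386 and 0.0527). The summed neural list was 8057 to 10580 with siGLO and 6191 to 8960 with siStag1. Of these sums *Stmn2* alone made up 3740 to 4339 with siGLO and 1707 to 1951 with siStag1. Of the 17 log2 fold changes 8 were negative and 9 positive, so the sum does not describe the list as a whole.

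Primitive streak and mesoderm genes gave 4 falls of 15 tested, where 3.39% of all genes fell, and no rise in edgeR, in DESeq2 or at an unadjusted p under 0.05. *Cdx1* was at 75, 220 and 55 with siGLO and 26, 6 and 8 with siStag1, *Sp5* at 56, 226 and 68 and then 32, 21 and 4, *Wnt8a* at 42, 361 and 34 and then 40, 25 and 15, and *T* (brachyury) at 80, 268 and 36 and then 52, 33 and 26. All 4 are WNT-responsive or streak genes, and siGLO replicate 2 was far above the other controls in each. The summed list ran from 570.3 to 2123 in the siGLO libraries and from 458.3 to 544 in the siStag1 libraries. Without siGLO replicate 2 the calls for *Cdx1* (log2 fold change −2.27) and *Sp5* (−1.71) held, while those for *Wnt8a* (−0.50, adjusted p = 0.658) and *T* (−0.64, adjusted p = 0.488) were lost, and the median of the list moved from −0.77 to −0.22. They were lost too without siStag1 replicate 2 or 3, and 0 of the 15 were called when only the 6 libraries entered the fit.

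Trophoblast genes gave 3 falls of 12 tested, where 3.39% of all genes fell, and no rise in edgeR, in DESeq2 or at an unadjusted p under 0.05. The falls were *Tead4* (log2 fold change −1.16 ± 0.15), *Tfap2c* (−0.95 ± 0.18) and *Igf2* (−1.29 ± 0.15, from 666, 677 and 526 to 305, 209 and 247), a growth factor gene that overlaps its antisense gene *Igf2as*, so without a stated strand setting their reads cannot be told apart. *Tead4* and *Tfap2c* encode factors that ES cells express as well. Among fibroblast feeder markers, fixed as a check on other cells, 1 of 11 tested rose, against 2.98% of all genes (*Fbn1*, 0.73 ± 0.22, adjusted p = 0.0837, a call lost in 4 of the 6 fits that leave out 1 library), and none fell in edgeR, in DESeq2 or at an unadjusted p under 0.05, and the list summed to 1508 to 2674 with siGLO and 1415 to 2022 with siStag1. The 11 tested genes of the 2-cell-like state had a median log2 fold change of 0.49, with pair medians of 0.52, 0.58 and 0.66 and 9 of 11 positive, and a median of −0.86 in wild type. None of the 11 was called in wild type or for a difference between the 2 siStag1 effects. In *Stag2*-/- cells *Usp17le* was the 1 gene called of the 11 (2 with the replicate block, and 0 in 4 of the 6 fits that leave out 1 library). It belongs to a family of near-identical copies between which reads can be split (30, 8 and 10, then 79, 35 and 56).

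Genes that the study plotted as lying inside Super-enhancer Domains, loops that hold a super-enhancer and its target genes, fell in 4 of 5 cases, where 3.39% of all genes fell. This list was chosen by the study on these samples and is not independent evidence of its direction, and *Prdm14* and *Jam2* also belong to the naive list. *Tdh*, the gene of threonine dehydrogenase, an enzyme that mouse ES cells use to feed 1-carbon metabolism, went from 5854, 5505 and 5255 to 2169, 1465 and 1126 (log2 fold change −1.80 ± 0.17, adjusted p = 1.24e-05). *Laptm5*, a lysosomal membrane protein gene, went from 997, 512 and 689 to 385, 233 and 254 (−1.33 ± 0.22, adjusted p = 0.0023), and *Jam2*, an adhesion molecule gene, from 1090, 1080 and 1182 to 316, 462 and 662. The fifth gene, *Enpep*, was near the limit of detection at 2 to 5 normalized counts. None of the 4 genes plotted as lying outside such domains passed the test in edgeR or DESeq2 (1 had an unadjusted p under 0.05), where 2.98% of all genes rose in edgeR. *App* (0.57), *Xkr6* (0.49), *Slco5a1* (0.45) and *Sdc3* (0.25) all had positive log2 fold changes.

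Among the 12 largest falls, 2 of genes outside these lists were in *Inhbb* and *Ntn1*. *Inhbb*, which encodes the activin B subunit, went from 604, 320 and 374 to 50, 64 and 34 (log2 fold change −3.12 ± 0.26, adjusted p = 2.97e-06). *Ntn1*, the gene of the guidance cue netrin 1, went from 1429, 1999 and 1549 to 357, 266 and 227 (−2.55 ± 0.18, adjusted p = 6.65e-07). Both genes showed no overlap and kept their calls in all 6 fits that leave out 1 library. The homeobox gene *En1* (32, 170 and 92, then 16, 17 and 19), the growth factor gene *Tgfb2* (113, 91 and 61, then 36, 8 and 13) and the transglutaminase gene *Tgm3* (101, 79 and 71, then 33, 17 and 7) were also among the 12, with *Cdx1*, *Prdm14*, *Sp5*, *Tfcp2l1*, *Fst* and *Tbx3*.

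The 12 largest rises included several genes at low levels. *Mmp25*, a membrane-type metalloproteinase gene, was the highest of them and rose from 188, 378 and 409 to 700, 1064 and 1456 (log2 fold change 1.72 ± 0.28, adjusted p = 0.00185). *Zeb2*, a repressor of epithelial genes, rose from 80, 211 and 253 to 310, 454 and 1013, with replicate 1 lowest in both groups (1.70 ± 0.40, adjusted p = 0.0232), and its call was lost without siStag1 replicate 3 (adjusted p = 0.175). *Skor1*, a corepressor gene of neurons, rose from 25, 13 and 14 to 138, 42 and 70 (2.25 ± 0.49, adjusted p = 0.0162). *Adamtsl1*, an extracellular matrix gene, rose from 111, 96 and 130 to 195, 283 and 437, and *Cdh10*, a cadherin gene, from 63, 77 and 61 to 152, 204 and 194. The adhesion gene *Alcam* (1.56), the glutamate receptor gene *Gria4* (1.47), the GDNF receptor gene *Gfra1* (1.46), *Btbd17* (1.91), *Frrs1l* (1.62), the steroid enzyme gene *Hsd11b2* (1.49) and *Zbp1*, a sensor of Z-form nucleic acid (1.44), had 19 to 72 normalized counts in the siGLO libraries and 54 to 198 in the siStag1 libraries. Calls for *Gria4* and *Btbd17* were lost in 3 of the 6 fits that leave out 1 library, that for *Gfra1* in 2 and those for *Frrs1l* and *Hsd11b2* in 1.

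**Figure D3:**
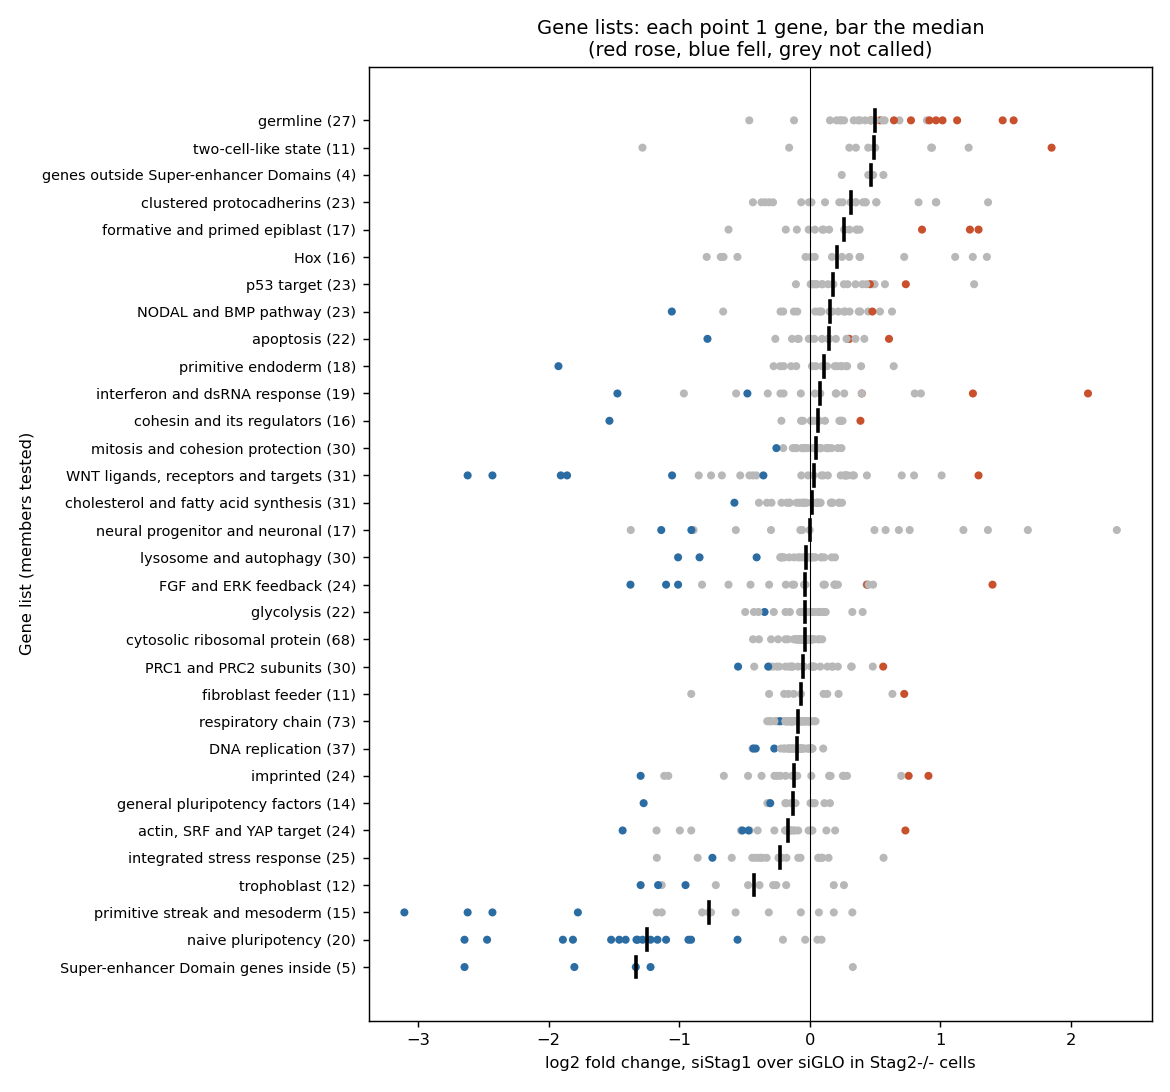
Log2 fold changes (x axis) of every tested member of the 32 gene lists, 1 row per list with the number of members tested, ordered by the median (black bar). Of the 20 naive pluripotency genes 18 lie below 0, with a median of −1.25, and of the 27 germline genes 25 lie above 0, with a median of 0.505, while the medians of ribosomal protein, mitosis and DNA replication genes lie between −0.10 and 0.05.

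Germline genes were the list with the most rises, a list that was also chosen with earlier results of these data known. Of 27 tested, 10 rose and none fell in edgeR and in DESeq2 (14 and 0 at an unadjusted p under 0.05), with a median log2 fold change of 0.505 against 0.01 over all genes, of which 2.98% rose. The same-numbered pairs gave medians of 0.41, 0.63 and 0.49, and the summed list was 4358 to 5450 with siGLO and 6424 to 7063 with siStag1. The count was 10 without the libraries numbered 1 and 13 with the replicate block, but 5 without siGLO replicate 2, 4 without siGLO replicate 3 and 6 without siStag1 replicate 3, and 1 when only the 6 libraries entered the fit. In wild-type cells siStag1 gave a median of 0.417 for the list, with *Tex11* and *Ddx4* called.

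*Tex11*, a meiotic recombination gene on the X chromosome, rose from 294, 224 and 216 to 518, 433 and 487 (log2 fold change 0.97 ± 0.13, adjusted p = 0.000522). *Ddx4*, the RNA helicase VASA of germ cells, rose from 612, 548 and 495 to 770, 781 and 741 (0.47 ± 0.11, adjusted p = 0.0212). *Mael*, a factor of transposon silencing, rose from 217, 155 and 107 to 382, 290 and 297 (1.02 ± 0.25, adjusted p = 0.0282), and *Dazl*, an RNA-binding regulator of germ cells, from 145, 134 and 133 to 234, 193 and 217 (0.65 ± 0.16, adjusted p = 0.0297). The *Mael* call was lost without siGLO replicate 3 (adjusted p = 0.105 in edgeR). The other 6 that rose were named after their values were seen: *Taf7l* (1.56), *Sycp2* (1.48), *Stra8* (1.13), *Slc25a31* (0.92), *Tdrd1* (0.78) and *Mov10l1* (0.54), all as log2 fold changes. They were at low levels, from 10 to 248 normalized counts in the siGLO libraries, and each of these 6 calls was lost in 2 to 4 of the 6 fits that leave out 1 library.

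**Figure D4:**
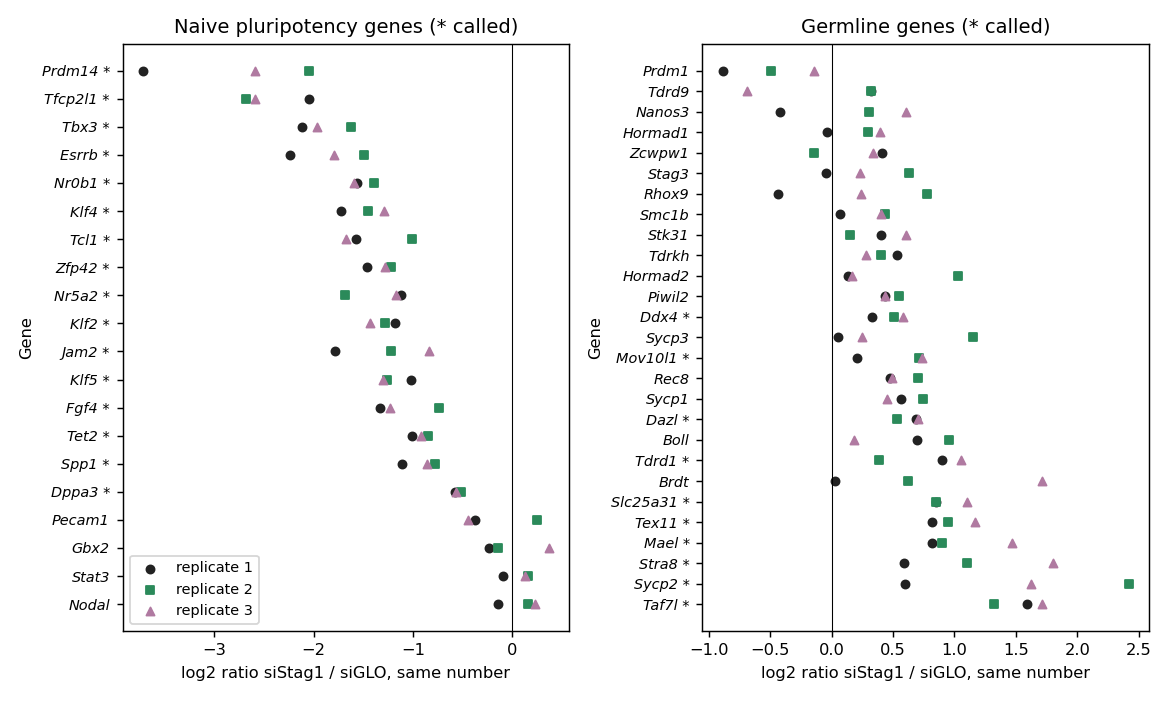
Log2 of the ratio of siStag1 to siGLO normalized counts (each plus 1) for replicate numbers 1, 2 and 3, for the 20 naive pluripotency genes (left) and the 27 germline genes (right) tested in *Stag2*-/- cells; an asterisk marks called genes. The 16 called naive genes were below 0 in all 3 pairs, and the 10 called germline genes were above 0 in all 3.

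A sequence feature that was not used in choosing the germline genes is the E-box CACGTG in their promoters, the element that factors of the MYC, MAX and MGA family are known to bind. RefSeq promoter windows (GRCm38.p6, 250 bases before to 50 after each start) were matched for 24 of the 27 genes, and 14 of these held a CACGTG, which reads alike on both strands. It stood in 6 of the 9 matched genes that rose and in 8 of the 15 that were not called. By window, 56.7% of germline windows held it, against 9.78% of the windows of all tested genes, 10.3% of those of genes that rose and 9.0% of those of genes that fell. The match describes letters only. The stretch around the element (in capitals, 5′ to 3′ on the gene's strand) is shown for the 6 genes that rose and hold it, with the coordinates of the stretch after each name.
*Ddx4*, chr13:112652311-112652369, minus strand: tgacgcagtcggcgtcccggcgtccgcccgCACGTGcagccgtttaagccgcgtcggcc
*Mael*, chr1:166238932-166238994, minus strand: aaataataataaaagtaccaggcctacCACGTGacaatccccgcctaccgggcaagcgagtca
*Tdrd1*, chr19:56826168-56826233, plus strand: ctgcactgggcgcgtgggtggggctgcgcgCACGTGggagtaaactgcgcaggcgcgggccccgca
*Slc25a31*, chr3:40708748-40708813, plus strand: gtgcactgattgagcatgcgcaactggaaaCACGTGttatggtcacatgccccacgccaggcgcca
*Taf7l*, chrX:134476504-134476569, minus strand: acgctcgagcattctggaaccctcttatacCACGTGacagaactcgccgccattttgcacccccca
*Mov10l1*, chr15:88982744-88982783, plus strand: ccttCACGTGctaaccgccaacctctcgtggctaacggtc

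The element began 29 bases before the start in *Ddx4*, 49 in *Taf7l*, 77 in *Tdrd1* (11 from another start), 93 in *Slc25a31*, 223 in *Mael* and 246 in *Mov10l1*. *Sycp2*, *Stra8* and *Dazl* rose without a CACGTG in their windows. The other 7 elements were searched in the same windows, on both strands. The CTCF core CCACNAGGG was in 0.6% of the windows of genes that fell, 1.75% of those that rose and 1.6% of all tested. The TCF and LEF element CTTTGAT was in 2.8%, 2.19% and 2.48%, the KLF element GGGTGTGG in 3.4%, 2.41% and 3.79%, and the ESRRB element TCAAGGTCA in 0.6%, 0.219% and 0.248%. The STAT element TTCCNGGAA was in 0.8%, 1.75% and 1.19%, the E2F element GCGGGAAA in 2.4%, 1.31% and 1.95%, and the interferon-stimulated response element GAAACNGAA in 1.6%, 1.75% and 1.62%. No window of the naive genes (17 windows of 14 genes) held the CTCF, ESRRB, STAT or TCF element, which says only that these letters are not in this stretch.

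In the FGF pathway, which drives ES cells out of the naive state, 2 ligand genes fell and 1 receptor gene rose, with 19 of 24 members not called. *Fgf4*, the main autocrine ligand of ES cells, went from 3727, 2930 and 3066 to 1482, 1753 and 1302 (log2 fold change −1.10 ± 0.12, adjusted p = 5.7e-05). *Fgf17* went from 539, 853 and 622 to 278, 277 and 222 (−1.37 ± 0.17, adjusted p = 0.000142). *Fgfr2*, a receptor gene, rose from 233, 236 and 258 to 588, 480 and 851 (1.40 ± 0.17, adjusted p = 0.000153). Of the ERK feedback inhibitors, *Spry4* went from 2108, 1711 and 1684 to 1133, 851 and 750 (−1.01 ± 0.20, adjusted p = 0.00955), whereas *Dusp6*, named after its values were seen, rose (0.44 ± 0.13, adjusted p = 0.0646), a call lost in 4 of the 6 fits that leave out 1 library. In all 2 of 24 members rose and 3 fell (3 and 4 with the replicate block), where 2.98% of all genes rose and 3.39% fell, with a median of −0.04.

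In the WNT pathway 1 of 31 members rose and 6 fell, with a median of 0.03, where 2.98% of all genes rose and 3.39% fell. With the replicate block 5 rose and 7 fell, without siStag1 replicate 1 it was 5 and 6, and with only the 6 libraries 1 and 1. *Porcn*, the enzyme that lipidates WNT ligands, went from 502, 608 and 353 to 205, 270 and 229 (log2 fold change −1.05 ± 0.18, adjusted p = 0.00263). The ligand gene *Wnt4* went from 53, 98 and 48 to 25, 8 and 21 (−1.86 ± 0.40, adjusted p = 0.016). *Lef1* rose and *Sp5* and *Wnt8a* fell, as given above, and the receptor gene *Fzd5* (−0.35) and the inhibitor gene *Dkk1* (−1.91), both named after their values were seen, complete the calls. The *Dkk1* call was lost in 4 of the 6 fits that leave out 1 library. In the NODAL and BMP pathway *Skil*, an inhibitor of SMAD signalling, rose (0.48 ± 0.14, adjusted p = 0.0603) and the ligand gene *Bmp4* fell from 227, 163 and 149 to 131, 73 and 55 (−1.06 ± 0.31, adjusted p = 0.0689), with 21 of 23 members not called, and both calls were lost in 4 of the 6 fits that leave out 1 library. With the replicate block 5 rose and 1 fell, and with only the 6 libraries none was called.

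Lists of growth and division genes are given beside the 3.39% of all genes that fell. No cytosolic ribosomal protein gene of 68 was called by edgeR or DESeq2 (0 had an unadjusted p under 0.05), with a median log2 fold change of −0.04 and 55 of 68 negative. Of 30 genes for mitosis and cohesion protection 1 fell, *Spc24* of the NDC80 kinetochore complex (−0.25 ± 0.08, adjusted p = 0.0805), and its call was lost in 5 of the 6 fits that leave out 1 library and with only the 6 libraries (adjusted p = 0.225). Of 37 DNA replication genes 3 fell: *Orc1* of the origin recognition complex (−0.43 ± 0.09, from 1605, 1680 and 1611 to 1252, 1254 and 1127), *Mcm10* (−0.41 ± 0.11) and *Cdc6* (−0.27 ± 0.07), both helicase loading or activation genes. The replication list leaned down as a whole, with 32 of 37 log2 fold changes negative and a median of −0.10, while 48.9% of all genes were negative, and 7 fell with the replicate block. The calls for *Mcm10* and *Cdc6* were lost in 4 and 3 of the fits with 1 library left out, and 1 to 5 members fell in those fits. Of 73 respiratory chain genes 69 were negative with a median of −0.09, and 1 was called, *Sdhb* (−0.23 ± 0.07, adjusted p = 0.094), a call lost in all 6 fits with 1 library left out (adjusted p = 0.124 to 0.245) and with only the 6 libraries (0.243). Other metabolic calls were *Hk2*, a hexokinase gene (−0.35 ± 0.10, 1 of 22 glycolysis genes), and *Ebp* of cholesterol synthesis (−0.58 ± 0.14, 1 of 31), lost in 3 and 2 of those fits. The fit with the replicate block called 14.1% of all genes, with 1047 rises and 1002 falls among 14508. In that fit 4 of 73 respiratory chain genes fell, and 2 of 22 glycolysis genes rose and 3 fell. Of 31 cholesterol and fatty acid synthesis genes 2 rose and 2 fell with the block.

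Of stress and death genes, called genes were 2 of 23 p53 targets, 3 of 22 apoptosis genes, 1 of 25 integrated stress response genes and 5 of 19 interferon genes, against 6.37% of all genes. The replicate block called 14.1% of all genes. Of 23 p53 targets *Ddit4l* (log2 fold change 0.74 ± 0.17, adjusted p = 0.0252) and *Eda2r* (0.46 ± 0.13, adjusted p = 0.0664) rose, 22 had a positive log2 fold change, and 10 rose with the replicate block. The *Eda2r* call was lost in 4 of the 6 fits that leave out 1 library and the *Ddit4l* call in 1, and with only the 6 libraries that of *Ddit4l* was lost (adjusted p = 0.201). Of 22 apoptosis genes 2 rose and 1 fell (5 and 2 with the replicate block), among them *Bmf*, which rose (0.61 ± 0.19, adjusted p = 0.0941), and *Hrk*, which fell (−0.78 ± 0.22, adjusted p = 0.063), both genes of BH3-only proteins. Each of these calls was lost in 4 of the 6 fits that leave out 1 library, and with only the 6 libraries none of the 22 was called. Of 25 integrated stress response genes *Asns*, asparagine synthetase, fell from 5681, 7086 and 5060 to 4479, 3194 and 2965 (−0.74 ± 0.15, adjusted p = 0.00887), and 10 fell with the replicate block, 7 without the libraries numbered 1 and 12 without siStag1 replicate 1. Of 19 interferon and double-stranded RNA response genes tested, *Oasl2* (1.25), *Rsad2* (2.13, from 13, 3 and 5 to 54, 26 and 14) and *Bst2* (0.40) rose while *Oas1a* (−1.47) and *Ifitm3* (−0.48, named after its value was seen) fell (4 rose and 3 fell with the replicate block), and the list summed to 6808 to 6955 with siGLO and 6411 to 7433 with siStag1. Without siStag1 replicate 2 none of the 19 was called, and each of the 5 calls was lost in 2 to 4 of the 6 fits that leave out 1 library. *Oas1a* has near-identical copies, so its reads may be shared.

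Of 30 PRC1 and PRC2 subunit genes 3 were called (6.37% of all genes were), with a median log2 fold change of −0.05: *Eed* and *Suz12*, core subunits of PRC2, fell and *Bmi1* of PRC1 rose. With the replicate block 2 rose and 4 fell, with only the 6 libraries 1 fell, and without siStag1 replicate 3 none was called. The *Eed* call was lost in 3 of the 6 fits that leave out 1 library, that of *Bmi1* in 2 and that of *Suz12* in 1. *Suz12* went from 4236, 4237 and 4303 to 3359, 3505 and 3391 (log2 fold change −0.32 ± 0.08, adjusted p = 0.0327), *Eed* from 3352, 2822 and 2473 to 2413, 1845 and 1654 (−0.55 ± 0.13, adjusted p = 0.0297) and *Bmi1* from 223, 235 and 208 to 330, 271 and 383 (0.56 ± 0.15, adjusted p = 0.0426). In edgeR none of 16 tested Hox genes and none of 23 tested clustered protocadherin genes was called (3 of each had an unadjusted p under 0.05, and DESeq2 called 0 and 1). With the block, which called 14.1% of all genes, 2 of 16 Hox genes and 1 of 23 protocadherin genes were called. These genes were at low levels, and protocadherin isoforms share exons between which reads can be split. Of 24 imprinted genes *Cdkn1c*, a cell cycle inhibitor gene, rose from 1063, 1072 and 1144 to 1800, 1896 and 2472 (0.91 ± 0.19, adjusted p = 0.0129), *Ndn* rose (0.76 ± 0.20, adjusted p = 0.0439) and *Igf2* fell, while 3 rose and 2 fell with the replicate block. The *Ndn* call was lost in 2 of the 6 fits that leave out 1 library. Of 30 lysosome and autophagy genes 3 fell (4 with the replicate block), among them *Tfeb*, the master factor of lysosome genes, which went from 578, 769 and 805 to 300, 379 and 391 (−1.01 ± 0.15, adjusted p = 0.000772), with *Ulk1*, an autophagy kinase gene (−0.84). Of 24 actin, SRF and YAP target genes 1 rose and 3 fell (1 and 5 with the replicate block, 1 and 6 without siStag1 replicate 1): *Tpm1* (−0.47), *Cnn2* (−0.52) and *Acta1* (−1.43) fell and *Lats2* (0.73) rose. Calls for *Cnn2*, *Acta1* and *Lats2* were lost in 3, 4 and 3 of the 6 fits that leave out 1 library, and with only the 6 libraries none of the 24 was called.

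In wild-type cells the same siRNA gave 36 calls (0.248%), 15 higher and 21 lower, and 236 with the replicate block (924 and 2049 in *Stag2*-/- cells). The gap depended on the fit: with only the libraries of the groups compared the counts were 126 in wild type and 224 in *Stag2*-/- cells, and with the block as well 1493 and 3553. Leaving out any 1 of the 6 wild-type libraries took this count to between 1 and 15. The wild-type and *Stag2*-/- siStag1 comparisons share no libraries. In both, 29 genes were called, all in the same direction, which is 80.6% of the wild-type calls and 3.14% of the *Stag2*-/- calls. They include *Stag1* itself, *Tfcp2l1* (log2 fold change −0.71 in wild type), *Tbx3* (−0.87), *Spp1* (−0.58), *Tex11* (0.83) and *Ddx4* (0.61). The naive list had a median of −0.405 in wild type, where 3 of 20 fell.

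The difference between the 2 siStag1 effects was tested in the same model. It passed for 23 genes (0.159%), of which 20 had the lower log2 fold change in *Stag2*-/- cells, and for 138 with the replicate block. The count was 76 without *Stag2*-/- siStag1 replicate 1, 80 without number 1 in both *Stag2*-/- groups, 14 with only the libraries of the 4 groups, and 13 to 15 without 1 of the wild-type libraries other than siGLO replicate 1. Of the naive genes 5 of 20 passed: *Tfcp2l1* (difference −1.76 ± 0.19 on the log2 scale, adjusted p = 0.000703), *Esrrb* (−1.49 ± 0.20, adjusted p = 0.00398), *Klf4* (−1.11 ± 0.22, adjusted p = 0.0676), *Tbx3* (−1.02 ± 0.18, adjusted p = 0.0444) and *Nr5a2* (−0.90 ± 0.16, adjusted p = 0.0444). *Ntn1* fell by 2.55 on the log2 scale in *Stag2*-/- cells and had a log2 fold change of −0.35 ± 0.16 in wild type, and *Tdh* and *Stmn2* had −0.30 and −0.16 there. *Fgfr2* had 0.11 ± 0.18 in wild type against 1.40 in *Stag2*-/- cells (difference 1.29 ± 0.25, adjusted p = 0.0567). No difference passed for *Nanog*, *Sox3*, *Lef1* or any germline gene, which does not show that those effects were equal.

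**Figure D5:**
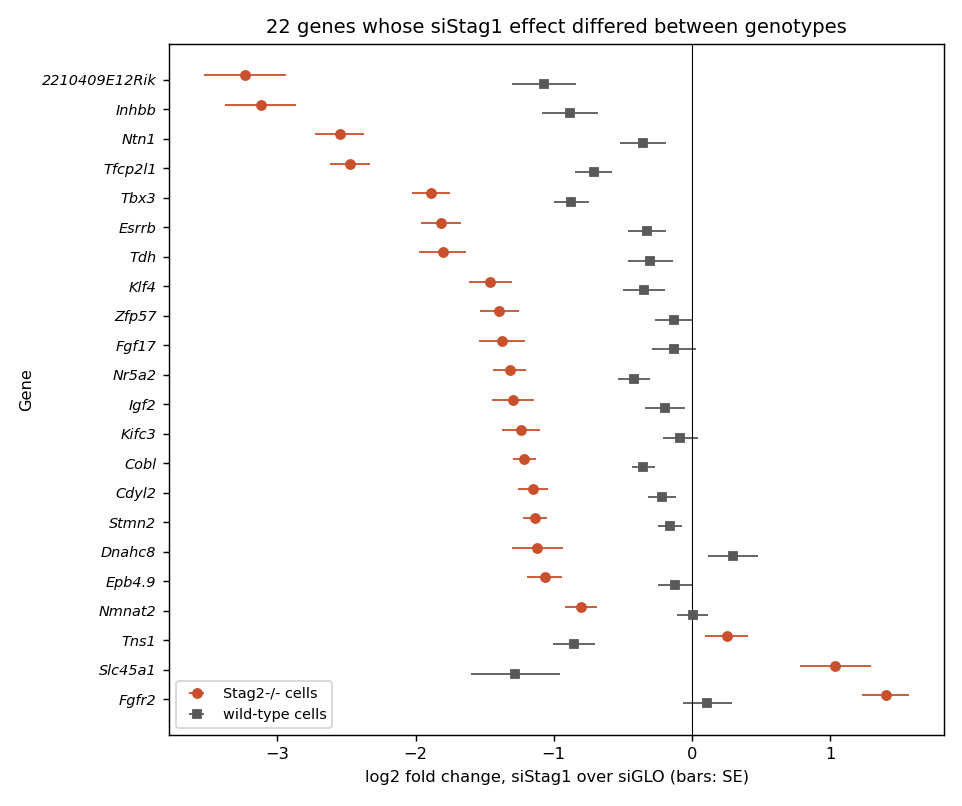
Log2 fold changes of siStag1 over siGLO (x axis, bars give the SE) in *Stag2*-/- cells (circles) and wild-type cells (squares) for 22 of the genes whose effects differed. *Inhbb*, *Ntn1* and *Tfcp2l1* had values of −3.12, −2.55 and −2.47 in *Stag2*-/- cells and of −0.88, −0.35 and −0.71 in wild type, while *Fgfr2* rose in *Stag2*-/- cells and had a log2 fold change of 0.11 in wild type.

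Called genes were spread over the chromosomes. Between 5.01% (chromosome 8) and 8.86% (X chromosome) of the tested genes of a chromosome were called, and the X chromosome had the highest share of rises (5.97%) with a median log2 fold change of 0.07. Genes that rose had longer gene bodies in GENCODE M21 (median 46215 bases) than genes that fell (20304) or all tested genes (23298), given here as a description. Per kb of exon the median level was 63.5 normalized counts for genes that rose, 108 for those that fell and 85.1 for all.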

How the data were processed

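Polyadenylated RNA was sequenced from 15 libraries of mouse ES cells (5 groups of 3). The authors deposited raw read counts per gene. The submitters' processing notes name STAR, mm10 and DESeq2, while the counting tool, annotation and strand setting are not given in the sources used here. Groups and replicate numbers came from the sample labels. The 4 summary lines (21.09% to 22.15% of reads in the 6 libraries compared) were left out.

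Of 23412 genes listed, 14508 passed edgeR's filterByExpr (minimum count 10, minimum total 15). edgeR 4.0.16 in R 4.3.3 was run with TMM scaling, 1 coefficient per group over all 15 libraries, and glmQLFTest with Benjamini-Hochberg adjustment at 0.1. SE was the absolute log2 fold change over the square root of F. DESeq2 1.42.0, other scalings, filters and samples, a replicate block and each replicate left out were alternatives. The main fit was also run on simulated counts, and the outcome of that run is not reported here.

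Same-numbered libraries deviated together (r = 0.765, 0.301 and 0.676 in Stag2-KO, 0.508, 0.265 and 0.596 in wild type, over 11529 genes), with the numbers from the labels. siStag1 replicate 2 correlated more with siGLO replicate 3 (0.475). No library was a copy of another.

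Genes named were all cohesin genes, the 12 largest rises and 12 largest falls among calls averaging 50 normalized counts or more whose groups did not overlap (predicted genes, RIKEN clones, small RNAs and pseudogenes left out), up to 4 members per list with the smallest adjusted p, genes the study plots, and up to 4 genes at each end of the difference between genotypes. Members and lists were chosen with earlier results of these data known. GENCODE M21 placed 98.3% of genes, and RefSeq (GRCm38.p6) promoters matched 11311 tested genes (14525 windows of 11422 RefSeq genes, since an older symbol can lead to a further RefSeq gene). Values of a few genes that these rules select are not reported here.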

Additional observations from a re-analysis of the deposited data

Results flagged for a closer look

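The effect of siStag1 differed between *Stag2*-/- and wild-type cells for 23 genes in edgeR's test of the difference, and 22 of the differences are given here as the log2 fold change in *Stag2*-/- cells minus that in wild type. The lower values in *Stag2*-/- cells were those of *Inhbb* (−2.24), *Ntn1* (−2.20), *2210409E12Rik* (−2.16), *Tfcp2l1* (−1.76), *Tdh* (−1.50), *Esrrb* (−1.49), *Dnahc8* (−1.42), *Zfp57* (−1.26), *Fgf17* (−1.24) and *Kifc3* (−1.15). They were followed by *Klf4* (−1.11), *Igf2* (−1.10), *Tbx3* (−1.02), *Stmn2* (−0.98), *Epb4.9* (−0.95), *Cdyl2* (−0.93), *Nr5a2* (−0.90), *Cobl* (−0.86) and *Nmnat2* (−0.81). The higher values were those of *Tns1* (1.11), *Fgfr2* (1.29) and *Slc45a1* (2.31). *Tns1* was not called in *Stag2*-/- cells (log2 fold change 0.25 ± 0.15, adjusted p = 0.445) and was lower in wild type (−0.85 ± 0.15, adjusted p = 0.0348), while *Slc45a1* rose in *Stag2*-/- cells (1.04 ± 0.26, adjusted p = 0.0338). Leaving out *Stag2*-/- siStag1 replicate 1 took the count to 76.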

How the results depend on the processing

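Counts of called genes depended on the samples, the pairing and the tool. In *Stag2*-/- cells, where 924 genes were called for siStag1, the count was 2049 with the replicate block, 224 with only the 6 libraries compared, 3553 with both (chosen after seeing the data), 548 at an adjusted p under 0.05, and 416 to 1484 with 1 library left out. The replicate block lost none of the 924. For wild type (36) it was 131 with DESeq2, 236 with the replicate block, 126 with only the libraries compared, 1493 with both, 22 at an adjusted p under 0.05, and 1 to 15 with 1 library left out. For the difference between genotypes (23) it was 102 with DESeq2, 138 with the replicate block, 14 with only the libraries compared, 152 with both, 80 without number 1 in both *Stag2*-/- groups (chosen after seeing the data), and 13 to 76 with 1 library left out. For *Stag2*-/- against wild-type siGLO cells (4110) it was 2524 to 3985 with 1 library left out. The cause of these shifts was not tested. Among the 924, 46.8% rose, against 37.1% with only the libraries compared and 34.4% without siStag1 replicate 3. The other scalings, filters and DESeq2 left the 924 within 1.5 times. Of 161 genes named by rule, 88 were called, none of these changed sign under any alternative, and 35 kept their call under all. The *Stag1* level stayed at 33.5% to 36.3% with 1 library left out. Depth limits genes at low counts, such as *Cdx1* and *Skor1*.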

Other observations

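The items here were chosen after their values were seen. *Ctcfl*, the germline paralog of *Ctcf*, rose from 17, 3 and 3 normalized counts to 69, 32 and 42 (log2 fold change 2.603 ± 0.55, adjusted p = 0.0143). Of 14353 neighbouring pairs of tested genes, 96 (0.669%) had both genes called, and 75 of these (78.1%) moved in 1 direction, 52 down and 23 up, while 55.5% of all pairs had log2 fold changes of the same sign. Such a pair is *Fgf17* (−1.37) and *Epb4.9* (−1.06), which lie 155 bases apart, so that without a stated strand setting reads at their ends may be shared.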
